A study of Mus musculus with 16 samples.

Results

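The maternally methylated imprint control regions are stretches of CpG-rich DNA that carry methylation on the copy inherited from the mother and none on the copy from the father. The mark is set in the oocyte, is held through the wave of demethylation in the early embryo, and decides which parental copy of the neighbouring genes is expressed. In somatic cells a region of this kind therefore reads as partly methylated when both copies are sequenced together. Its upkeep depends on the zinc finger protein ZFP57, which binds the methylated hexamer TGCCGC and recruits TRIM28 and maintenance methylation by DNMT1.

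Windows around these regions were followed for 10 imprinted genes during the reprogramming of mouse fibroblasts to pluripotent cells with small molecules. The windows were given as coordinates on the mouse build GRCm39. The rule does not use methylation levels, but the windows were chosen with earlier results of these data known. A window was used where at least 3 CpG sites had 10 or more reads in each of the 16 libraries. Of 11 windows, 2 of them at Gnas, 8 met the rule, so that 7 of the 10 genes were measured. The 8 windows held 218 of the 873038 sites common to all libraries, with the 2 strands of a CpG counted as 2 sites. The Peg3 window, named for a paternally expressed zinc finger gene, held 0 common sites, with 1 to 44 sites listed per library. The windows of Peg10, a gene derived from a retrotransposon, and of Plagl1, a zinc finger transcription factor gene, also held 0, with sites listed in 5 and 14 of the 16 libraries. These 3 windows were not analysed further.

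D0 stands for fibroblasts of mouse embryos (MEFs), strain 129XOG2, taken at embryonic day 13.5 and used at passages 1 to 3. In OG2 mice a fluorescent protein reports the activity of Oct4, a pluripotency gene, and all groups come from these MEFs. D2, D4, D6, D8, D10 and D12 were cells in reprogramming medium, harvested 2 days apart, and the iPSCs were induced pluripotent stem cells grown on feeder cells in medium with LIF, CHIR99021 (an inhibitor of GSK3) and PD0325901 (an inhibitor of MEK). Each of the 8 groups had 2 libraries of reduced representation bisulfite sequencing (RRBS), which reads CpG-rich fragments cut by MspI. The labels do not give the day or culture from which the iPSCs were derived, whether feeder cells were removed, or whether the replicates were separate cultures, so p-values measure the spread between these libraries only. The libraries held 39011213 to 107834007 reads summed over the listed sites, with a read counted at each site it crosses. Reads of windows were counted in the same way. The level of a window is its methylated reads as a percent of its reads, summed over common sites. The sites of a window lie close together and share reads, so a window is 1 measurement and not a set of independent sites. In bulk DNA, fewer cells with a methylated copy and fewer methylated CpGs per cell cannot be told apart, and the parental copies were not separated.

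For 4 of the genes, the promoter sequence in the RefSeq promoter table is shown for the CG and ZFP57 motif content at the start of the gene. The table covers 250 bases before to 50 bases after a gene's start, on the build GRCm38.p6, and 9 of the 10 genes had an entry. The common sites are on GRCm39, so they were not placed on these letters, and whether these starts lie inside the windows was not determined. Capitals mark each CG, the dinucleotide that RRBS reads. The coordinates are chr7:60005150-60005449 on the minus strand for Snrpn (the start with the most CG of its 4), chr7:143296498-143296797 on the minus strand for Kcnq1ot1, chr6:30737800-30738099 on the plus strand for Mest and chr2:157559828-157560127 on the plus strand for Nnat.
Snrpn: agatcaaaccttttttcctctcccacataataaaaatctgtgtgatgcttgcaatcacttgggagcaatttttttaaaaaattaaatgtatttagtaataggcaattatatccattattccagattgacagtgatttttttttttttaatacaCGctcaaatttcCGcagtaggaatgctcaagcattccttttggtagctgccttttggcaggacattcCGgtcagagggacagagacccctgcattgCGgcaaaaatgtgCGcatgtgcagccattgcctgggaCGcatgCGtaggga
Kcnq1ot1: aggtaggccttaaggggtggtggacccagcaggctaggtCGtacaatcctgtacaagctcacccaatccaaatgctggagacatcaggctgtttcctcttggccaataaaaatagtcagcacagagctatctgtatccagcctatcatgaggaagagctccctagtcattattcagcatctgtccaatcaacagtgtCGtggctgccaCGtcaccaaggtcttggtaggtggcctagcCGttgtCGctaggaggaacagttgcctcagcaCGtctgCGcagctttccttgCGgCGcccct
Mest: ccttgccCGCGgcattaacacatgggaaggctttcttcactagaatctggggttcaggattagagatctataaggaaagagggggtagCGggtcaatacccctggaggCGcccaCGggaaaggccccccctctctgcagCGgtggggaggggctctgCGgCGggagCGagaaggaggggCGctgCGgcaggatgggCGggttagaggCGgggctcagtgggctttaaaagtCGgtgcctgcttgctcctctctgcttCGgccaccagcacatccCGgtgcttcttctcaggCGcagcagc
Nnat: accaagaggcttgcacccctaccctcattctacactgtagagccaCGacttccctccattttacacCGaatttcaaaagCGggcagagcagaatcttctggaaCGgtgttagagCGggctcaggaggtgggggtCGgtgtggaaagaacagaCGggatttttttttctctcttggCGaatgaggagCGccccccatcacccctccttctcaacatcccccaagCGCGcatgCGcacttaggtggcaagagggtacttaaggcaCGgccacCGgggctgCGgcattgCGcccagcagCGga

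The 4 sequences hold 7, 9, 17 and 17 CG, against a median of 7 over the 32851 promoters of the table. The ZFP57 hexamer TGCCGC, searched on both strands, occurs 1 time in the Snrpn sequence, 2 times in Mest and 1 time in Nnat, and 0 times in Kcnq1ot1. No Mest entry has more CG than the one shown, and the Mest entry at 30733256 to 30733555 has 8 CG and 0 of the hexamer. The other Snrpn entries also have 0 of the hexamer. Over all entries of the 9 genes the hexamer occurs in 6 of 18, some of which overlap, and in no entry of Peg3, Airn or Gnas. It occurs in 11.6% of all promoters of the table. CCGG, the MspI site, occurs 1 time each in Snrpn, Mest and Nnat and 0 times in Kcnq1ot1, and is found in 52.8% of all promoters. CCGG and TGCCGC can share letters. These are matches of letters in windows of 300 bases and not sites of binding.

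The median level of the windows declined step by step from D4 to D12, stayed above that of the tiles from D8 to D12, and was far below it in iPSCs. At D10 the windows stood at 36.8% to 58.1%, with 4 of 8 called lower than in MEFs, beside 81.6% of tiles. At D12 it was 6 of 8, beside 82.7% of tiles. In iPSCs the mean of each window was under 10%, while the median of the tiles was close to that of MEFs. The median over the 8 windows was 61.6% at D0, 53.2% at D2, 59.0% at D4, 51.7% at D6 and 46.8% at D8. It was 40.7% at D10, 31.1% at D12 and 8.45% in iPSCs. For the 94337 tiles of 1 kb with at least 3 common sites, the median was 65.7% at D0, 52.7% at D6, 35.6% at D8, 24.3% at D10, 15.7% at D12 and 63.6% in iPSCs. Tiles whose D0 level lay within the range of the windows (47.5% to 72.9%, 36500 tiles) had medians of 34.7% at D8, 23.9% at D10, 15.0% at D12 and 63.1% in iPSCs.

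**Figure D1:**
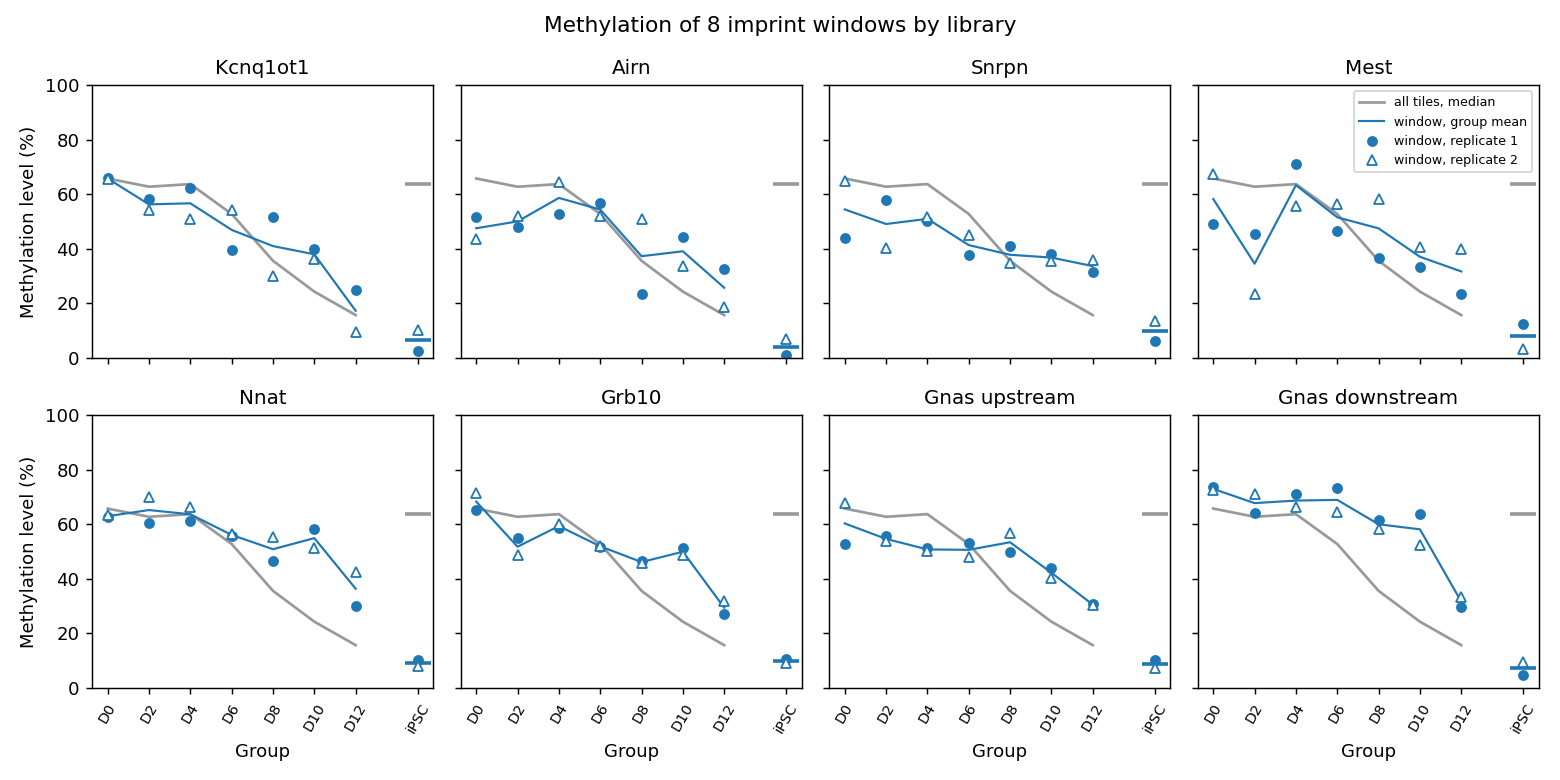
Methylation level (percent, vertical axis from 0 to 100) of each imprint window in each library, by group; filled circles are replicate 1, open triangles replicate 2, the blue line joins group means of the time course, and the grey line is the median of all 1-kb tiles. In iPSCs both libraries of each window lie under 14%, while the tile median (grey bar) is at 63.6%.

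A tile or window was called when the adjusted p of edgeR's quasi-likelihood test, Benjamini-Hochberg over 94355 features, was under 0.05 and the means of the groups lay 10 or more percentage points apart. At D2 and D4 no window was called, beside 0.0488% and 0.0774% of tiles called lower. In each of these comparisons 1 window, Grb10, had an unadjusted p under 0.05 in edgeR, and the quasi-binomial model also called 0. At D6, 1 of 8 windows was called lower, beside 21.3% of tiles. At D8 the count was 2 of 8 beside 72.3%, and at D10 it was 4 of 8 beside 81.6%. At D12, 6 of 8 windows were called lower, beside 82.7% of tiles, which is near the background. Against MEFs, all 8 windows were called lower in iPSCs, beside 9.44% of tiles called lower and 4.03% called higher. Against D12, all 8 were again called lower, beside 1.49% of tiles called lower and 79.8% called higher. By library, 5 of 8 windows had both D8 libraries below both MEF libraries, beside 83% of tiles that did so, and 7 of 8 had both D10 libraries below, beside 88.2%. For D12 all 8 windows did, beside 86.6% of tiles, and for iPSCs all 8 did, beside 39.3%. Among tiles with a D0 level in the range of the windows, 97.1% were called lower at D10 and 98.8% at D12, while iPSCs had 6.29% called lower against MEFs and 0.203% against D12.

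The counts at D6 to D10 changed when 1 library was left out. The 1 call at D6 was lost without any 1 library of D0 or D6, with differences of -19.4 to -13.3 points. Fewer tiles were called lower in these fits as well, so the loss was not particular to the window. The D8 count was 1 with the replicate number as a block and with the strands merged, and 4 under the quasi-binomial model. Beside these, 71.9%, 71.0% and 73.6% of tiles were called lower. The D8 count also fell without D0 replicate 2. Of the 2 calls at D8, Grb10 was kept without any 1 library of D0 or D8, and the downstream Gnas window was lost in each of these fits (adjusted p = 0.0854 to 0.168). The D10 count fell without any 1 library of D0 or D10, most without D0 replicate 2. In such fits the share of tiles called lower fell far less at D10 than at D6. The D10 differences then ran from -21.4 to -15.3 points at Grb10 and -29.6 to -25.9 at Kcnq1ot1. They ran from -25.5 to -10.7 at the upstream Gnas window and -20.6 to -9.01 at the downstream one. For iPSCs against MEFs, each window that could be fitted was called under each alternative tried.

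**Figure D2:**
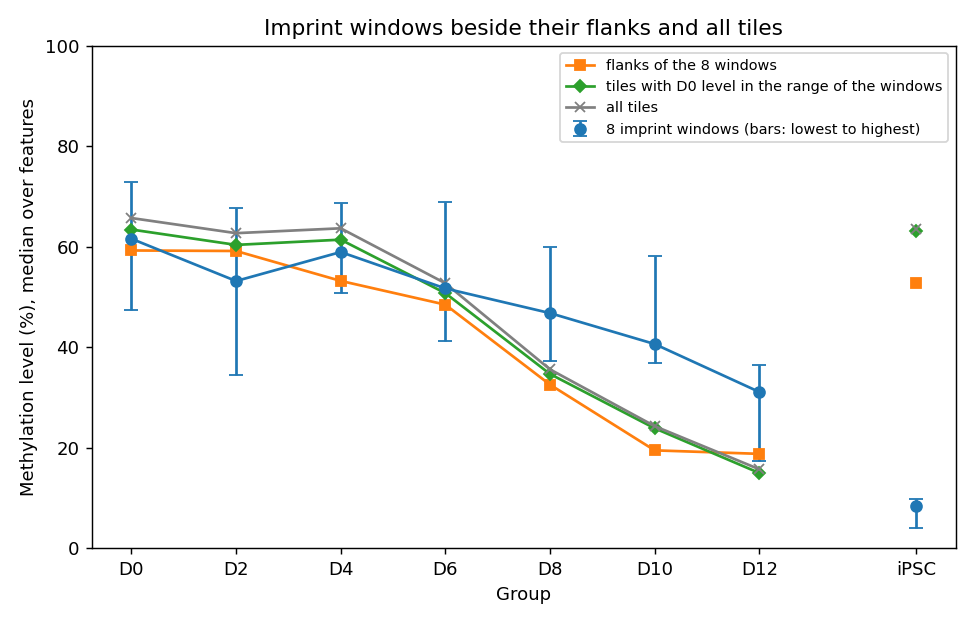
Median methylation level (percent) by group for the 8 imprint windows (blue, bars from the lowest to the highest window mean), their flanks (orange), tiles with a D0 level in the range of the windows (green) and all tiles (grey). The windows lie above the other medians at D8, D10 and D12 and, at 8.45%, below them in iPSCs.

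Each window was set beside its flank, the common sites within 20 kb on either side of it, without sites of any window. The flanks of the 2 Gnas windows overlap between these windows, so they are not separate measurements. At D0 the libraries of 4 windows all lay above those of their flank and those of 2 all lay below. By D10 the libraries of each of the 8 windows lay above those of its flank, and at D12 this held for 6. In iPSCs each of the 8 lay below its flank in all libraries. The median over the 8 flanks was 59.3% at D0, 19.5% at D10, 18.8% at D12, and iPSCs had 52.8%. The flanks hold few common sites at some genes, with 5 at Kcnq1ot1, 7 at Airn and at Mest, and 11 at Snrpn. The difference in course between window and flank was not tested. Of the 3 windows that were not used, Peg3 and Peg10 had a measured flank. The Peg3 flank stood at 86.3% ± 0.476 (SD, n = 2) in MEFs and 82.6% ± 4.24 (SD, n = 2) in iPSCs. The Peg10 flank went from 88.5% ± 1.51 (SD, n = 2) to 80.4% ± 0.379 (SD, n = 2), a difference of -8.13 points that is under the minimum of 10 (edgeR adjusted p = 0.00832).

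**Figure D3:**
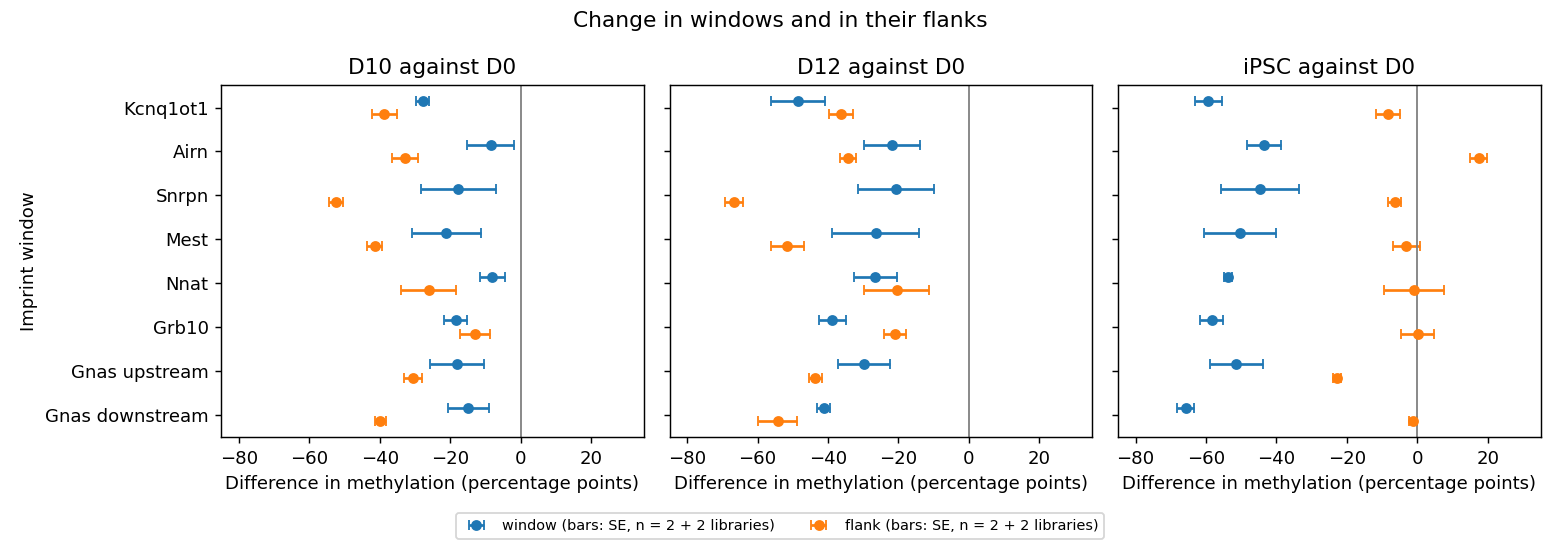
Difference in methylation from D0 (percentage points, horizontal axis; bars are SE from 2 libraries in each group) in D10, D12 and iPSC libraries, for each imprint window (blue) and its flank (orange). In iPSCs the windows lie at -65.7 to -43.5 points, and 7 of the 8 flanks at -8.34 to 17.4 points.

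Of the windows named for long non-coding RNAs, Kcnq1ot1 was called lower than in MEFs at D10 and D12 and Airn was not, and both were called lower in iPSCs. The difference between these windows was not tested. The Kcnq1ot1 RNA is made from the paternal copy and silences neighbouring genes of its domain on the same chromosome. Its window (chr7:142847001-142852000) held 22 common sites between positions 142849206 and 142849355, with 897 to 2812 reads per library. The libraries of Kcnq1ot1 stood at 66.0% and 65.5% at D0, 58.3% and 54.2% at D2 and 62.2% and 51.1% at D4. They stood at 39.6% and 54.2% at D6, 51.8% and 30.2% at D8 and 39.8% and 36.2% at D10. They reached 25.0% and 9.64% at D12, and iPSCs had 2.57% and 10.3%. The replicates agreed within 1 point at D0 and lay 14 or more points apart at D6, where replicate 1 was the lower, and at D8 and D12, where replicate 2 was. The difference from D0 was -27.7 points ± 1.83 (SE; adjusted p = 0.041) at D10, -48.4 points ± 7.66 (SE; adjusted p = 0.000873) at D12 and -59.3 points ± 3.88 (SE; adjusted p = 0.000899) in iPSCs, by edgeR. The call at D10 was lost without any 1 library of D0 or D10 (adjusted p = 0.0871 to 0.128) and with a replicate block (adjusted p = 0.0501). Between D12 and iPSCs the libraries overlapped, and the difference of -10.9 points ± 8.58 (SE; adjusted p = 0.0494) passed the threshold narrowly in edgeR. It missed it in 9 of 12 alternatives, with -3.20 points without D12 replicate 1.

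The Airn RNA, also made from the paternal copy, silences Igf2r, the gene of a receptor that clears the growth factor IGF2. Its window (chr17:12958001-12963000) held 16 common sites between positions 12960477 and 12960636, with 434 to 1168 reads per library. The libraries of Airn stood at 51.5% and 43.5% at D0, 48.0% and 52.0% at D2 and 52.6% and 64.6% at D4. D6 gave 56.9% and 51.9%, D8 23.6% and 51.0% and D10 44.4% and 33.7%. At D12 the levels were 32.7% and 18.8%, and in iPSCs 1.15% and 6.85%. At D4 and D6 both libraries lay above both MEF libraries, and no increase was called (differences of 11.1 and 6.87 points, edgeR adjusted p = 1 and 0.673). The sites did not move alike. Ranks 4, 6, 8, 10, 12 and 14 in genome order stood at 70.1% to 79.2% at D4 and 46.6% to 48.1% at D6. Apart from rank 16, the other sites stood at 46.0% to 48.2% at D4 and 53.2% to 64.5% at D6. The window holds 10 forward and 6 reverse sites of 10 distinct CpGs, so each reverse site directly follows the forward site of the same CpG. The ranks named first match such a layout. Which ranks are reverse was not looked up, and a difference between strands was not tested. At D8 the replicates differed by more than at any other time, and the sign of the difference from D0 changed without D8 replicate 1. At D12 both libraries were below MEFs, and the difference of -21.8 points ± 7.97 (SE; adjusted p = 0.0738) missed the threshold in edgeR. It was called by the quasi-binomial model (adjusted p = 0.0323) and by edgeR with the groups fitted alone (adjusted p = 0.0372), without D12 replicate 1 (-28.7 points, adjusted p = 0.0470) and with sites common to the groups compared (adjusted p = 0.0350). In iPSCs the level was 4.00% ± 4.03 (SD, n = 2), the lowest mean of the 8 windows, and the differences were -43.5 points ± 4.88 (SE; adjusted p = 0.00212) from MEFs and -21.7 points ± 7.47 (SE; adjusted p = 0.00241) from D12, by edgeR. Its flank stood at 41.3% ± 3.01 (SD, n = 2) in MEFs and 58.8% ± 1.502 (SD, n = 2) in iPSCs, a difference that edgeR did not call (adjusted p = 0.0656).

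Among the paternally expressed protein-coding genes, Snrpn encodes a component of small nuclear ribonucleoproteins and its control region governs the domain of the Prader-Willi and Angelman syndromes. Its window (chr7:59651001-59657000) held 7 common sites between positions 59654648 and 59654841, with 219 to 603 reads per library. The libraries of Snrpn stood at 43.9% and 64.9% at D0, 58.0% and 40.2% at D2 and 50.1% and 51.8% at D4. They stood at 37.7% and 45.0% at D6, 41.0% and 34.7% at D8 and 38.0% and 35.6% at D10. The last day, D12, gave 31.3% and 36.0%, and iPSCs gave 6.14% and 13.5%. The MEF replicates were 20.9 points apart, and no later library was above the higher of them. From D6 to D12 the mean went only from 41.4% to 33.7%, while the flank went from 53.5% to 7.06%. The difference from D0 was -20.8 points ± 10.7 (SE; adjusted p = 0.0316) at D12 in edgeR, and it was -10.3 points (adjusted p = 0.277) without D0 replicate 2. The call was also lost without either D12 library, with the groups fitted alone and with at least 20 reads per site (adjusted p = 0.0530 to 0.119). In iPSCs it was -44.6 points ± 11.1 (SE; adjusted p = 0.000973), and the flank stood at 67.3%.

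Mest encodes a protein of the hydrolase fold that is expressed from the paternal copy in mesodermal tissues. Its window (chr6:30735001-30741000) had the fewest reads of the 8, with 8 common sites between positions 30735423 and 30735508, with 125 to 291 reads per library. The libraries of Mest stood at 49.1% and 67.3% at D0, 45.5% and 23.6% at D2 and 71.1% and 55.5% at D4. D6 gave 46.7% and 56.4%, D8 36.7% and 58.2% and D10 33.3% and 40.8%. They reached 23.5% and 39.9% at D12, and iPSCs had 12.6% and 3.26%. The replicates were 15 or more points apart in MEFs and at D2, D4, D8 and D12, and the MEF and D12 libraries did not overlap. The difference at D12 was -26.5 points ± 12.2 (SE; adjusted p = 0.0587), which missed the threshold in edgeR, and it was called without D0 replicate 1 (-35.6 points, adjusted p = 0.0444), without D12 replicate 2 (-34.7 points, adjusted p = 0.0412) and with the strands merged (-23.3 points, adjusted p = 0.0372). The differences of iPSCs were -50.3 points ± 10.2 (SE; adjusted p = 0.00484) from MEFs and -23.8 points ± 9.47 (SE; adjusted p = 0.0113) from D12. The latter was lost without D12 replicate 2 (adjusted p = 0.0844) or iPSC replicate 2 (adjusted p = 0.0936).

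Nnat encodes neuronatin, a small membrane protein of the endoplasmic reticulum. Its window (chr2:157400001-157405000) held 43 common sites between positions 157400016 and 157402398, with 1485 to 4534 reads per library. The libraries of Nnat stood at 62.5% and 63.4% at D0, 60.3% and 70.05% at D2 and 61.1% and 66.2% at D4. They stood at 55.6% and 56.6% at D6, 46.5% and 55.3% at D8 and 58.4% and 51.4% at D10. At D12 the levels were 30.2% and 42.5%, and in iPSCs 10.3% and 8.24%. All libraries up to D10 stayed above 46%, and both D12 libraries lay below both D10 libraries. The difference from D0 was -8.03 points ± 3.53 (SE; adjusted p = 0.176) at D10, which edgeR did not call, -26.6 points ± 6.16 (SE; adjusted p = 0.000552) at D12 and -53.7 points ± 1.11 (SE; adjusted p = 2.18e-05) in iPSCs. The sites lay in 2 tiles that differed in iPSCs. The tile at 157402001 to 157403000, with 40 of the 43 sites, went from 62.9% at D0 to 55.6% at D10, 36.6% at D12, and it had 5.42% in iPSCs. The tile at 157400001 to 157401000, with 3 sites, went from 63.9% to 37.5% and 31.1% and stood at 57.4% in iPSCs.

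Grb10 encodes an adaptor that restrains growth factor signalling, and is expressed from the maternal copy in most tissues and from the paternal copy in neurons. Its window (chr11:11973001-11979000) held 32 common sites between positions 11975628 and 11975804, with 843 to 2254 reads per library. The libraries of Grb10 stood at 65.3% and 71.3% at D0, 54.8% and 48.7% at D2 and 58.7% and 59.97% at D4. D6 gave 51.7% and 52.2%, D8 46.6% and 45.7% and D10 51.2% and 48.6%. The last day, D12, gave 27.1% and 31.8%, and iPSCs gave 10.7% and 9.05%. From D2 to D10 all libraries lay under both MEF libraries and above 45%. The strands of the window did not move alike. Apart from ranks 2 and 31, sites of odd rank in genome order stood at 78.5% to 86.7% at D0 and 43.8% to 50.3% at D4. Sites of even rank stood at 61.0% to 67.7% at D0 and 65.4% to 72.2% at D4. The window holds 16 forward and 16 reverse sites of 16 distinct CpGs. Each CpG was therefore read on both strands, with forward sites at odd ranks and reverse sites at even ranks. The contrast lies between strands of the same CpGs, and its cause was not tested. Grb10 was the only window called lower at D6 (-16.4 points ± 3.04 (SE; adjusted p = 0.0146), edgeR), and at D10 the difference was -18.4 points ± 3.29 (SE; adjusted p = 0.000713). It was -38.8 points ± 3.84 (SE; adjusted p = 1.71e-06) at D12 and -58.4 points ± 3.13 (SE; adjusted p = 5.02e-06) in iPSCs. The flank stood at 30.4% ± 2.48 (SD, n = 2) in MEFs and 30.6% ± 6.03 (SD, n = 2) in iPSCs.

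Gnas encodes the alpha subunit of the stimulatory G protein, from a locus with several promoters that differ in imprinting. Which promoter lies in which window was not looked up, since no annotation of GRCm39 was at hand. The upstream window (chr2:174135001-174144000) held 38 common sites between positions 174141015 and 174142050, with 776 to 2543 reads per library. The libraries of the upstream window stood at 52.9% and 67.7% at D0, 55.6% and 53.7% at D2 and 51.4% and 50.2% at D4. They stood at 53.1% and 48.2% at D6, 49.9% and 56.9% at D8 and 44.1% and 40.4% at D10. They reached 30.8% and 30.3% at D12, and iPSCs had 10.4% and 7.46%. The libraries from D2 to D8 lay between 48.2% and 56.9%, within a range that overlaps D0 replicate 1. The difference was -18.1 points ± 7.63 (SE; adjusted p = 0.00643) at D10, -29.7 points ± 7.41 (SE; adjusted p = 0.000157) at D12 and -51.3 points ± 7.55 (SE; adjusted p = 2.06e-05) in iPSCs, by edgeR. The call at D10 was lost without D0 replicate 2 (-10.7 points, adjusted p = 0.0838). This was the only one of the 8 windows whose flank was also called lower in iPSCs than in MEFs, from 63.5% ± 1.55 (SD, n = 2) to 40.7% ± 0.168 (SD, n = 2) (-22.8 points, adjusted p = 0.000649). Of the 62 common sites of this flank, 35 lay in 1 tile (174128001 to 174129000), which stood at 65.7% at D0 and 15.3% in iPSCs.

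The downstream Gnas window (chr2:174168001-174171000) had the highest mean of the 8 windows in MEFs and held 52 common sites between positions 174170384 and 174170774, with 1784 to 7541 reads per library. The libraries of the downstream window stood at 73.5% and 72.4% at D0, 64.2% and 71.2% at D2 and 70.9% and 66.4% at D4. D6 gave 73.2% and 64.7%, D8 61.6% and 58.3% and D10 63.9% and 52.3%. At D12 the levels were 29.8% and 33.5%, and in iPSCs 4.79% and 9.59%. All libraries up to D10 stayed above 52%, and both D12 libraries were under 34%. The difference was -14.8 points ± 5.81 (SE; adjusted p = 0.0273) at D10, -41.3 points ± 1.92 (SE; adjusted p = 3.86e-05) at D12 and -65.7 points ± 2.46 (SE; adjusted p = 1.28e-05) in iPSCs, by edgeR. At D10 it was -9.01 points (adjusted p = 0.199) without D10 replicate 2 and the call was also lost without either D0 library. The flank went from 73.8% in MEFs to 19.5% at D12 and 72.6% in iPSCs.

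Between D10 and D12 the libraries of 6 windows did not overlap and were lower at D12, beside 56.1% of tiles. This pair of days was compared without a test. The 6 were Kcnq1ot1, Airn, Grb10, Nnat and both Gnas windows. The mean differences of the 8 windows ran from -26.5 points at the downstream Gnas window to -3.13 points at Snrpn, with a median of -15.9 points, and the median over all tiles was -8.20 points. These differences start from unlike levels, since the D10 median was 40.7% over the windows and 24.3% over all tiles. Between D12 and iPSCs the median difference of the windows was -22.7 points and that of all tiles 43.7 points. In 7 of 8 windows the iPSC libraries lay below both D12 libraries, beside 5.75% of tiles, with Kcnq1ot1 as the exception.

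The order of the windows also changed. At D0 the downstream Gnas window was highest and Airn lowest, and neighbours in the order had overlapping libraries from Nnat down to Airn. At D10 the downstream Gnas window and Nnat were highest, and the libraries of the lower 5, from the upstream Gnas window to Snrpn, overlapped from neighbour to neighbour. Among D12 libraries and among iPSC libraries, neighbours in the order overlapped throughout. In iPSCs the mean levels ran from 4.00% at Airn to 9.86% at Grb10.

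Single CpG sites of the windows, with the strands of a CpG counted apart, were mostly at intermediate levels up to D12 and low in iPSCs, with exceptions. Of the 218 sites, 192 (88.1%) had a mean level between 20% and 80% at D0, against 23.7% of all common sites. At D10 it was 203 sites (93.1%) against 45.8%, and at D12 171 sites (78.4%) against 35.5%. In iPSCs 211 sites (96.8%) were under 20%, against 38.8% of all common sites. The 2 sites at 80% or more in iPSCs were both in the small tile of the Nnat window, at 86.4% and 84.7%, and stood at 96.8% and 87.6% at D0 and 34.5% and 38.0% at D12. The other 5 sites at 20% or more were 1 in the upstream Gnas window, at 42.2%, and 4 in the downstream one, at 21.4% to 23.1%. The median site went from 66.9% at D0 to 48.2% at D10, 31.4% at D12 and 7.35% in iPSCs. At D12 Kcnq1ot1 had 16 of its 22 sites under 20%, while Nnat had 3 of 43 and the downstream Gnas window 4 of 52. Uneven sites were not particular to Airn and Grb10. At D2, 16 of the 43 Nnat sites stood at 80% or more, against 2 at D0. From rank 7 to 28 of the downstream Gnas window, odd ranks stood at 46.7% to 53.7% at D2 and even ranks at 61.7% to 69.7%.

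**Figure D4:**
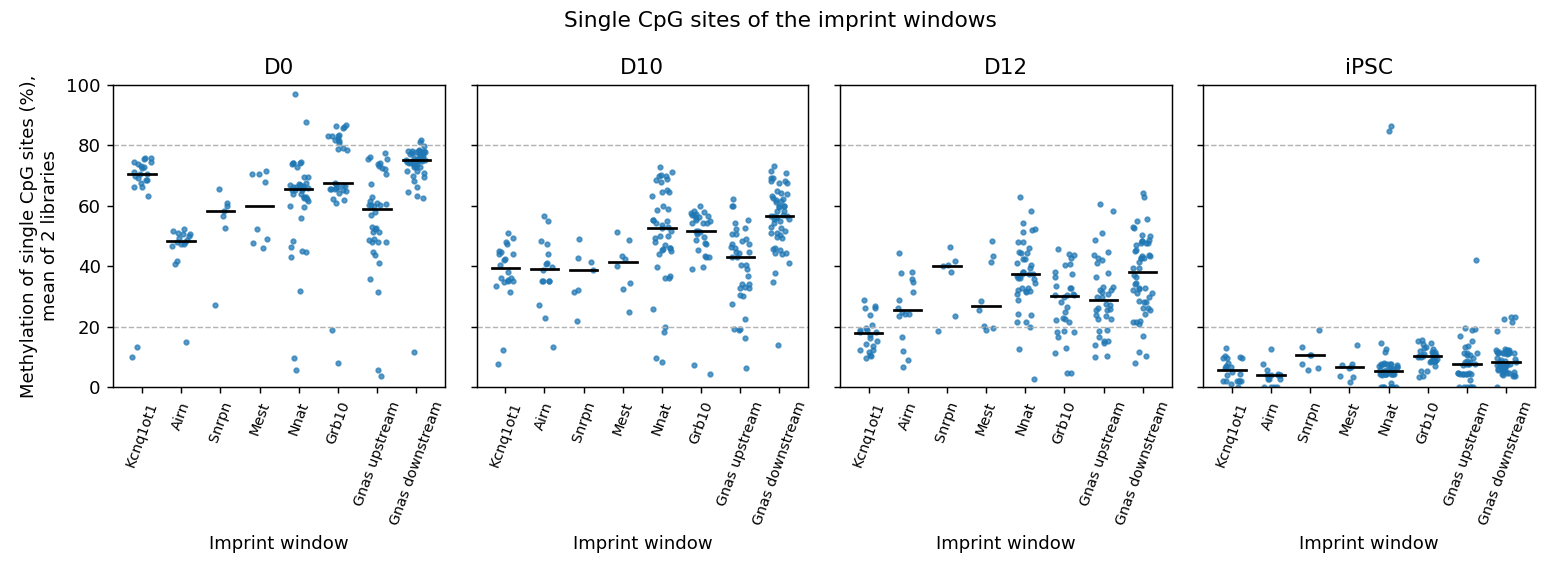
Methylation level of each of the 218 single CpG sites, strands apart, by imprint window at D0, D10, D12 and in iPSCs. Values are percent, mean of 2 libraries, and horizontal jitter is for display. Black bars are medians and dashed lines mark 20% and 80%. At D10, 203 of the sites lie between the dashed lines, and in iPSCs 211 lie under 20%.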

How the data were processed

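DNA methylation was measured by RRBS in 16 libraries, 8 groups of 2 by the labels. Per the submitters' processing notes, the authors used fastp 0.20.1, Bismark 0.23.0, Bowtie2 and methylKit with the build GRCm39, and their settings for trimming, duplicates and mapping are not stated in these sources. The authors' deposited tables list, per CpG site and strand, the coverage as a count of reads and the C and T shares of those reads as percent, per the file headers. No site had fewer than 10 reads, so each listed site meets that minimum, and coverage times percent gave a whole number of methylated reads at each site (0 exceptions, within the rounding of the percent). End repair fills in cytosines at MspI ends, which can change the level of sites there. PCR reads without molecular identifiers are not independent molecules. Median coverage was 18 to 27 reads per site. The number of reads given beside a window is summed over its sites, so a read that crosses several sites is counted at each. Separate reads are therefore fewer than that number, which overstates the precision of the window.

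Sites with at least 10 reads in all 16 libraries were kept (873038 of 3179510, or 27.5%), strands apart. Tiles of 1 kb with at least 3 such sites on chromosomes 1 to 19, X and Y, the 8 windows and 10 flanks of 20 kb on either side were features of 1 fit, so the sites of a window were also counted in its tile. edgeR 4.0.16 (glmQLFit, glmQLFTest; R 4.3.3) was run on counts of methylated and unmethylated reads, with 1 term per library, 1 methylation term per group, a common dispersion and 8 residual degrees of freedom. It was tested on simulated data. Comparisons share D0 or D12 libraries. With 2 libraries against 2, an exact permutation test of a single window cannot go below p = 0.333 and was not used. The members and lists were chosen with earlier results of these data known. Each window that met the rule is named, and tiles inside a window only where it holds more than 1. No pairing by replicate number was seen across tiles. Over 28 pairs of groups, the correlation of same-numbered deviations across tiles lay between -0.0144 and 0.00778. A shared effect that is small beside the counting spread of single tiles would not show in this, so pairing is not excluded. The table of gene coordinates at hand belongs to GRCm38.p6, so no gene, exon or other imprinted locus was placed on GRCm39, and further maternally methylated loci were not analysed here.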

Additional observations from a re-analysis of the deposited data

How the results depend on the processing

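Each comparison of windows was repeated under the alternatives set out for it. All 95 alternatives of a window in iPSCs against MEFs kept its call. They include the minimum of 25 points, which is another cutoff on the main fit and not a refit. Differences of the windows kept sign in the comparisons of D12 with D0 and of iPSCs with D12. A minimum of 25 points left 1 window called in iPSCs against D12, 0 at D6, 0 at D8 and 1 at D10. The share of tiles at that minimum was not set beside these counts. Fitting the compared groups alone, or sites common to them only, left 0 at D6, beside 14.9% and 0% of tiles called lower in these fits. At D8 the count was 4 under the quasi-binomial model, 1 with the replicate block and 1 with the strands merged. Beside these, 73.6%, 71.9% and 71.0% of tiles were called lower. Leaving out 1 library of the groups compared gave counts of 5 to 7 at D12 against D0, 8 to 8 and 7 to 7 for iPSCs against D0 and D12, 0 to 0 at D6, 1 to 3 at D8 and 1 to 3 at D10. With the replicate number as a block, calls changed in Kcnq1ot1 at D10 and in iPSCs against D12 (adjusted p = 0.0501 and 0.0607) and in the downstream Gnas window at D8 (adjusted p = 0.0624), and in no other window.

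The sign changed only in comparisons of D2 to D8 with D0 that were not called, and the cause was not tested. With at least 20 reads per site, where Mest could not be fitted, the difference was 1.86 points at D2 and 0.890 at D4 in the downstream Gnas window, 0.00692 in Snrpn at D4 and 1.98 in Nnat at D6. In Nnat it was -0.0873 at D2 and -0.117 at D4 with the strands merged, and -1.65 at D2 with sites common to the groups. Among fits without 1 library, the ranges that crossed 0 at D2 were -15.8 to 5.12 in Snrpn, -1.46 to 6.47 in Airn, -2.6 to 7.11 in Nnat and -13.1 to 1.74 in the upstream Gnas window. At D4 they were -13.9 to 7.01 in Snrpn, -3.97 to 14.1 in Mest and -1.84 to 3.24 in Nnat, at D6 -15.7 to 2.38 in Mest and -8.27 to 0.227 in the downstream Gnas window, and at D8 -23.9 to 3.46 in Airn, -21.5 to 0.00173 in Mest and -14.3 to 0.511 in the upstream Gnas window. Window levels moved by less than the replicate SD in 198 recomputations and by more in 34; the shift was -11.3 to 13.5 points with at least 20 reads per site, -9.20 to 5.49 with sites weighted equally, -6.02 to 2.76 with strands merged and -3.85 to 0.653 with windows shortened by 1 kb at each end, where Mest and the downstream Gnas window kept no site.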

Other observations

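Of the 218 sites, 10 were under 20% at D0. In Kcnq1ot1 these were the sites at rank 2 and 21 of 22 in genome order, at 13.1% and 9.87%, and in Grb10 the sites at rank 2 and 31 of 32, at 18.8% and 7.98%. The others were rank 16 of 16 in Airn, 3 and 23 of 43 in Nnat, 9 and 38 of 38 in the upstream Gnas window and 52 of 52 in the downstream one. They were counted in the window levels, and whether MspI ends lie there was not looked up.

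Tiles outside the windows with a like course were sought after the values of the windows had been seen, by the root mean square distance of their 8 group means from the mean course of the windows. The closest, at 3.13 points, lay at 143240001 to 143241000 on chromosome 5, over 62 sites, with levels of 56.8% (D0), 47.2% (D10), 27.5% (D12) and 9.64% (iPSC). The tile next to it, at 143241001 to 143242000, was also among the closest 20. The next in order lay on chromosome 12 (18438001 to 18439000, 3.24 points) and chromosome 6 (47881001 to 47882000, 4.43 points). A tile on chromosome 2 (174128001 to 174129000), in the flank of the upstream Gnas window, was at rank 17, with levels of 65.7% (D0), 40.4% (D10), 28.3% (D12) and 15.3% (iPSC). The windows themselves lay 3.29 (Grb10) to 11.5 points (downstream Gnas window) from their mean course, and 348 of 94327 tiles outside the windows (0.369%) lay within that largest distance. Which genes lie at these tiles was not looked up.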
